A study of Mus musculus with 35 samples.

Results

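Colon-enriched pseudogenes are the annotated pseudogenes of the mouse whose RNA was counted mainly in colon among 6 adult tissues. They were chosen from genes that the deposited annotation types as exactly processed or unprocessed pseudogenes, leaving out names that end in -ps with or without a number. A gene entered when its mean over the 6 colon libraries was at least 0.5 CPM (the count divided by the library total, times 1000000) and at least 3 times its mean in each of brain, cerebellum, heart, ovary and testis. Of 11337 pseudogenes that could have entered, 93 did, or 0.820%. They were 69 of 9318 processed and 24 of 2019 unprocessed pseudogenes, so 25.8% of the members were unprocessed against 17.8% of the pool. All 93 passed the filter on low counts, which left 29911 genes to be tested.

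Processed pseudogenes are copies of messenger RNAs that were written back into the genome, usually without introns and away from their parent genes. An unprocessed pseudogene is a duplicated gene, often still beside its parent, that has lost the capacity to make the original protein. The colon is lined by absorptive colonocytes and mucus-secreting goblet cells over smooth muscle, and its epithelium is rich in genes for detoxification, ion transport and defence against microbes.

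The data were RNA-seq counts from adult C57BL/6J mice, with libraries depleted of ribosomal RNA and strand-specific. The 10 groups were female and male brain, cerebellum, heart and colon, the female gonad (called ovary here) and the male gonad (called testis here), each with 3 libraries except male heart with 2. No group had a treatment or an altered genotype. Labels do not say which libraries came from the same animal, so p-values measure the spread between these samples. Total counts ran from 11742417 to 18890658 in the 6 colon libraries and from 18035978 to 36194255 in the other 23, so a colon library held fewer counts than most others. The counting error alone sets a limit: 3 counts in female colon 1, the shallowest library, correspond to 0.255 CPM.

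The labels of the libraries were checked on marker genes. Xist was at 32.2 CPM or above in all female libraries and at 0.281 CPM or below in all male ones, and Ddx3y was at 29.1 CPM or above in all male libraries and at 0.596 CPM or below in all female ones. All 16 absorptive colonocyte markers and all 8 goblet cell markers were higher in colon than in the other tissues (edgeR quasi-likelihood test, Benjamini-Hochberg adjusted p under 0.05), beside 28.3% of protein-coding genes called higher and 41.9% called lower. The summed CPM of the colonocyte markers averaged 38025 ± 8449 (SD, n = 6) in colon and 33.2 over the other libraries. In a bulk sample, fewer cells of a type and less RNA in each cell cannot be told apart.

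Colon libraries of the same group differed in ways that the groups do not explain. The antimicrobial lectin genes Reg3b and Reg3g, chosen after their values were seen, set 2 libraries apart. Reg3b was at 2051, 6.62 and 1.63 CPM in female colon 1, 2 and 3 and at 0.476, 0.266 and 1804 CPM in male colon 1, 2 and 3. Reg3g was at 508 CPM in female colon 1 and 588 CPM in male colon 3, and between 0.213 and 3.40 CPM in the other 4 libraries. Apoa1, which enterocytes and hepatocytes make, was at 415 and 354 CPM in the same pair and between 0.851 and 4.28 CPM elsewhere in colon. Female colon 1 and male colon 3 therefore stood apart together. The number of members, the calls by sex and the counts of parents and hosts are given without this pair in the closing section, and the other values were not computed without it.

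Together the members took a small share of the counts outside colon and a larger one inside it. These values chose the members and are a description. The summed CPM of the 93 members was 681, 534 and 368 in female colon 1, 2 and 3 and 384, 416 and 500 in male colon 1, 2 and 3. It averaged 481 ± 118 (SD, n = 6) in colon, 4.80 ± 1.25 (n = 6) in brain, 5.22 ± 1.22 (n = 6) in cerebellum, 9.95 ± 6.73 (n = 5) in heart, 13.5 ± 5.68 (n = 3) in ovary and 10.5 ± 0.700 (n = 3) in testis. Every colon library was above every other one. Outside colon, female heart 3 at 21.9 CPM and female ovary 1 at 20.0 CPM were higher than the rest of their tissues, where sums lay between 5.59 and 7.81 CPM in heart and between 9.52 and 11.0 CPM in ovary.

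The sum was uneven among members. The 5 with the highest colon mean made up 68.9% of it, 7 members were at 10 CPM or more, and 42 were below 1 CPM, with a median of 1.06 CPM. Members totalled between 45 and 13068 counts over the 6 colon libraries, with a median of 99, so that most values rest on few reads. The coefficient of variation over the colon libraries had a median of 47.1%. Female colon 1 held the highest value of 49 members, female colon 2 of 16, male colon 2 of 13, male colon 3 of 7, male colon 1 of 6 and female colon 3 of 2. The same count was not made over all genes tested, so these numbers are a description. In female colon 1, the shallowest library, a list of 109 housekeeping genes summed to 37253 CPM. In the other colon libraries that sum was 49126 CPM or more.

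In 63 of the 93 members (67.7%) every colon library was above each of the other 23 libraries. The same held for 6.52% of all genes tested, a comparison that the choice of members fixes in part. The other 30 members overlapped. The tissue with the next highest mean was ovary for 31 members, testis for 25, heart for 15, cerebellum for 8 and brain for 6, and 8 members had no count outside colon. These 8 were Gm27149, Gm15331, Gm37000, Gm8314, Gm18601, Clec2j, Gm16215 and Gm12252, of which the last 3 were chosen after their values were seen. Against a floor of 3 counts over all libraries outside colon, Gm27149 was at least 695-fold higher in colon and Gm12252 at least 104-fold higher, the extremes of the 8.

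Members near the limits of the rule were close to pseudogenes left out. The lowest colon means inside the floor were Gm17148 at 0.513 CPM, Gm4880 at 0.516 CPM and Gm9085 at 0.524 CPM, and just outside lay Gm20706 at 0.487 CPM, Gm19280 at 0.486 CPM and Gm7105 at 0.482 CPM. The smallest ratios of colon to the next tissue were 3.02 for Gm12219, 3.15 for Gm18087 and 3.16 for Gm5976, and just outside came Gm47726 at 2.96, Gm18553 at 2.94 and Gm43070 at 2.92. Nothing in these values separated the members from the genes next to them. A floor of 1 CPM left 51 members and a ratio of 2 gave 144, so their number depends on the limits.

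**Figure D1:**
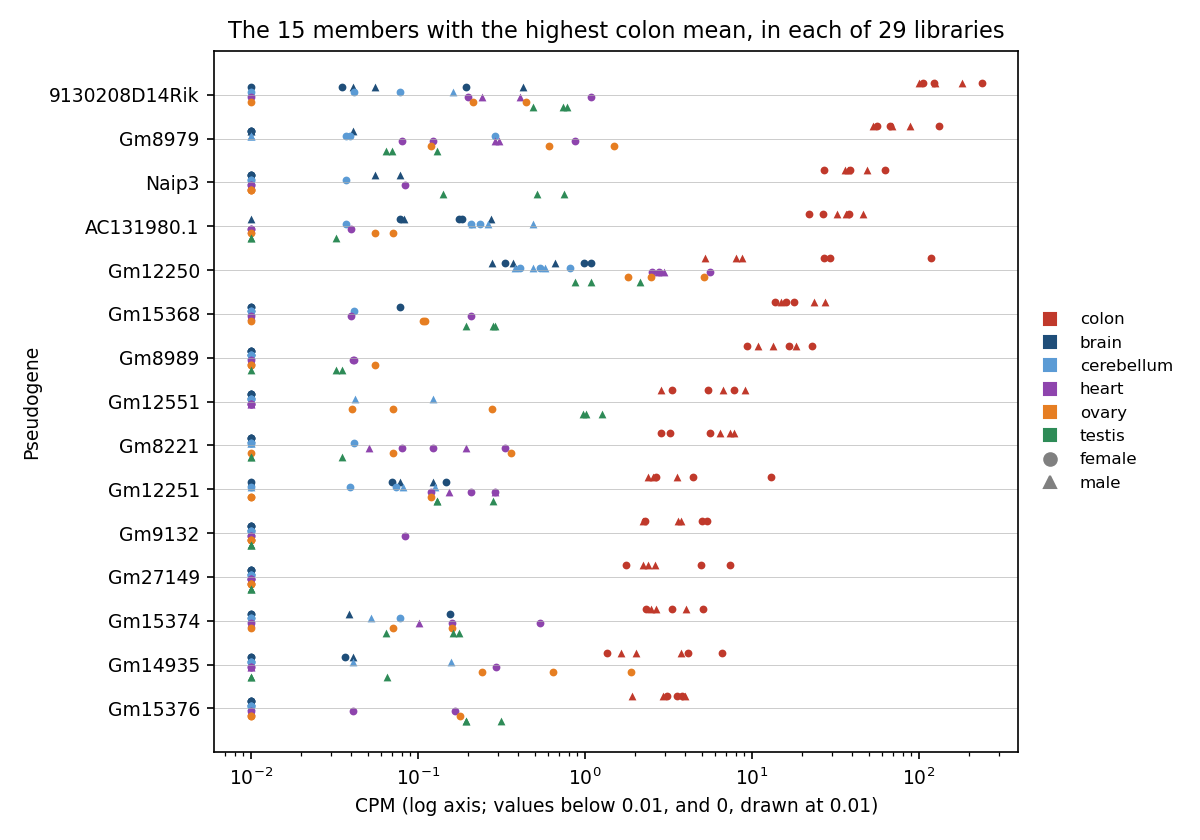
CPM on a log axis of the 15 members with the highest colon mean, 1 point per library, coloured by tissue, with circles for female and triangles for male libraries and values of 0 drawn at 0.01. Colon points lie to the right of all others except for Gm12250, where female heart 3 at 5.62 CPM is above male colon 1 at 5.24 CPM, and Gm14935, where female ovary 1 at 1.89 CPM is above the lowest colon library at 1.36 CPM.

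The members fell into 11 groups of neighbours less than 500 kb apart, which held 31 of the 93, and 4 of these groups had 3 members or more. The group with the highest counts lay on the minus strand of chromosome 7 and contained 4 copies related to Gvin1, which encodes a very large GTPase induced by interferons. These 4 gave 50.2% of the summed colon CPM. 9130208D14Rik (ENSMUSG00000086513, chr7:105824223-105831515 in mm10) is an unprocessed pseudogene of 1 exon of 7293 bases and had the highest colon mean of all members. It was at 237, 123 and 106 CPM in female colon 1, 2 and 3 and at 124, 99.5 and 180 CPM in male colon 1, 2 and 3. The lowest colon library was far above the highest other library, female heart 3 at 1.08 CPM. Its mean in colon was 145 ± 53.3 CPM (SD, n = 6) and its next highest tissue mean was 0.667 CPM in testis.

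Among the neighbouring copies, Gm8979 and Gm8989 shared the highest libraries with 9130208D14Rik. Gm8979 (ENSMUSG00000095649) was at 132, 67.1 and 56.4 CPM in female and at 68.8, 53.1 and 88.2 CPM in male colon 1, 2 and 3. Gm8989 was at 22.9, 16.6 and 9.30 CPM in female and at 10.9, 13.4 and 18.4 CPM in male colon 1, 2 and 3. For both, as for 9130208D14Rik, the highest library was female colon 1 and the second highest was male colon 3, the pair with high Reg3b, Reg3g and Apoa1. The part of whatever sets this pair apart in these levels was not tested. Gm27149, the short copy of 1266 bases, was instead highest in female colon 2 at 7.38 CPM, followed by female colon 1 at 4.94 CPM, with the other 4 between 1.77 and 2.62 CPM.

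The closest coding relatives of these copies could be compared only in part. Gm8979, Gm8989 and Gm27149 matched Gvin1 with 96.2%, 96.0% and 90.6% identity, but Gvin1 had no count of its own in the deposited table, so no level is given for it. 9130208D14Rik matched the coding gene Gm4070, 63624 bases away, with 89.5% identity over its whole length. Per kilobase of exon, 9130208D14Rik had 19.9 ± 7.31 FPKM in colon and Gm4070 had 0.240 ± 0.0608 FPKM (SD, n = 6), so the pseudogene was at 8273% of the coding gene. Only reads with a unique place were counted, according to the study's methods, so levels of copies this alike are uncertain.

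Naip3 (ENSMUSG00000082956, chr13:100340144-100378960) is an unprocessed copy in the Naip family, whose proteins detect bacterial flagellin and secretion system parts for the NLRC4 inflammasome. It was at 62.4, 38.8 and 27.0 CPM in female and at 35.9, 49.0 and 37.6 CPM in male colon 1, 2 and 3, and no library outside colon reached 1 CPM, the highest being male testis 3 at 0.748 CPM. The sexes overlapped. Its parent by sequence was Naip1, 28804 bases away, with 94.6% identity. Per length Naip1 was the more abundant of the pair, at 141 ± 19.3 FPKM in colon against 9.93 FPKM for Naip3, or 7.05%. Beside Naip3 lay Gm18601, and Gm18413, a processed copy of Riox2 named after its values were seen, lay inside Naip2 on the same strand.

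AC131980.1 (ENSMUSG00000118510, chr1:185432013-185432420) was the processed member with the highest colon mean and, at 82.5 FPKM in colon, the member with the highest level per length. Its 6 colon libraries ran from 21.9 to 46.1 CPM with a median of 34.6 CPM, and here female colon 1 was the lowest. AC131980.1 lies within the noncoding gene 9630028B13Rik on the opposite strand and shares exon bases with it. Where the counting strand is unknown, reads of that gene and of AC131980.1 cannot be told apart. The reference held no spliced sequence under the name AC131980.1, so no parent was looked for. Gm8221 is an unprocessed copy of Apol7c, an apolipoprotein L gene, with 97.0% identity. It was at 3.24, 2.87 and 5.63 CPM in female and at 6.46, 7.77 and 7.35 CPM in male colon 1, 2 and 3, so each male library was above each female one, while the test between the sexes called no difference.

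Duplicated copies of colonocyte and lectin genes were also among the members, and those in this paragraph other than Gm12551 were named after their values were seen. Gm5843 lies 36590 bases from Car1, the carbonic anhydrase gene of colonocytes, and has 97.9% identity to it, but reached only 4.95 FPKM in colon beside 10350 FPKM for Car1. Gm44223 matched Clec2e and Clec2j matched Clec2d, genes of C-type lectins. Gm12551 lies 17135 bases from Plin2, which encodes a lipid droplet coat protein, and has 91.7% identity to it. Gm12551 was at 3.32, 7.85 and 5.43 CPM in female and at 6.72, 9.04 and 2.85 CPM in male colon 1, 2 and 3, and at 1.02, 1.26 and 0.975 CPM in testis 1, 2 and 3. Testis was the next tissue after colon for this member, with a ratio of 5.41.

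All 7 members of the largest group by number lay within the Ugt1a locus on chromosome 1, between 88097918 and 88192683, in the direction of its transcription. This locus encodes UDP-glucuronosyltransferases, detoxifying enzymes made from alternative first exons that are each joined to the same downstream exons. The 7 are unprocessed copies lying between those exons and together had 30.1, 26.8 and 27.2 CPM in female and 25.0, 42.3 and 34.0 CPM in male colon 1, 2 and 3. Gm15368 (ENSMUSG00000081488) led them with 13.7, 15.9 and 17.9 CPM in female and 15.0, 27.4 and 23.6 CPM in male colon 1, 2 and 3. Gm15374, Gm15376, Gm15371, Gm15372, Gm15369 and Gm15373 had colon means of 3.32, 3.22, 1.92, 1.45, 1.35 and 0.699 CPM. Gm15370, also in this stretch and chosen after its values were seen, was at 0.122 CPM in colon and was not a member.

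The Ugt1a locus itself was at 173 ± 26.9 FPKM in colon, and Gm15368 reached 12.7% of that level and the other 6 members between 1.00% and 2.37%. The locus was higher in colon than in the other tissues by 5.58 on the log2 scale (SE 0.24, edgeR quasi-likelihood test, Benjamini-Hochberg adjusted p = 1.46e-16). Reads from unspliced transcripts of the locus cross the members in the same direction, and reads of the members and of such transcripts cannot be told apart in these counts. The noncoding gene Gm20528, at 183 CPM in colon, spans all 7 on the opposite strand, and its reads cannot be told apart either where the counting strand is unknown.

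**Figure D2:**
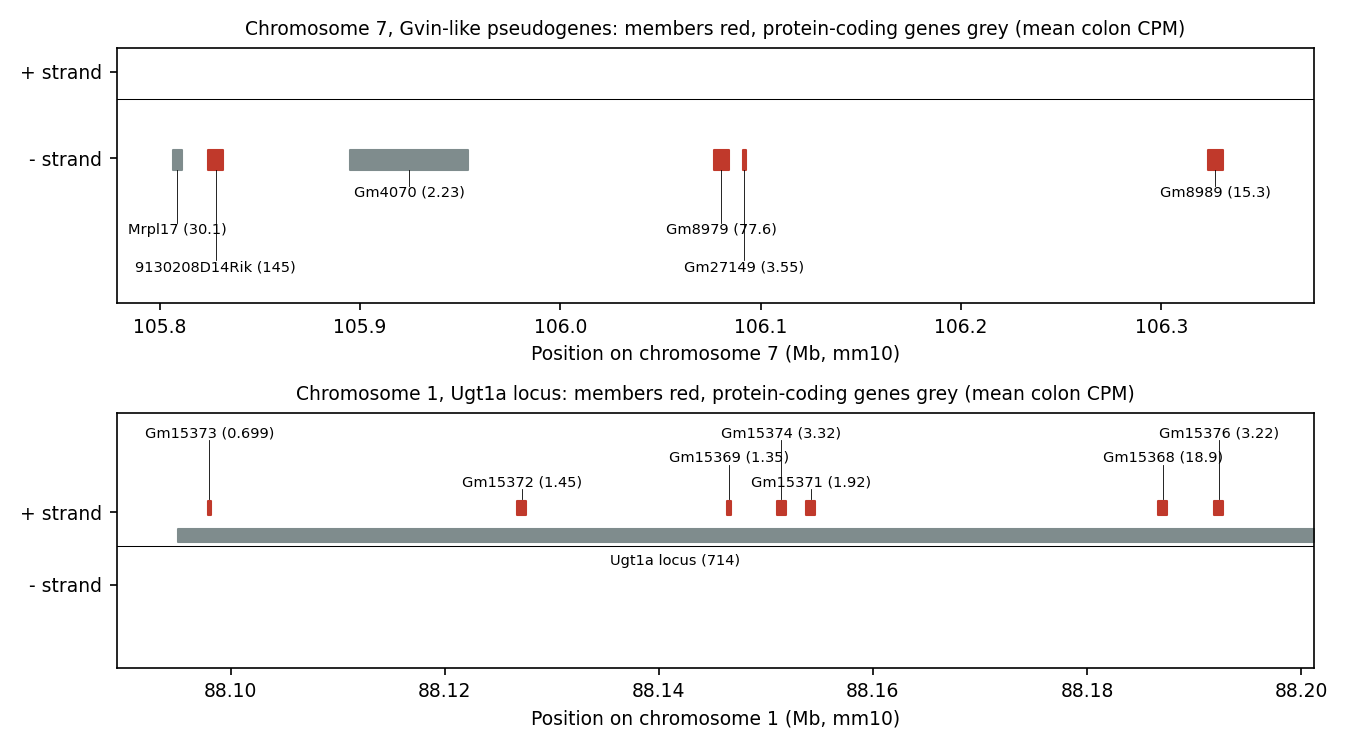
Positions of members (red) and protein-coding genes (grey) by strand along chromosome 7 and chromosome 1 in Mb of mm10, with the mean colon CPM of each gene in brackets. The 4 Gvin-like members lie on the minus strand at 145, 77.6, 3.55 and 15.3 CPM, and the 7 members of chromosome 1 lie within the Ugt1a locus, which was at 714 CPM.

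Sex within colon was a comparison that the rule did not use, since it averaged the sexes. Across all genes tested, 0.0903% were called higher in male and 0.234% higher in female colon by the quasi-likelihood test of edgeR after Benjamini-Hochberg adjustment. Among the 93 members, 0 were higher in male and 1 was higher in female colon, 5 had an unadjusted p under 0.05, and DESeq2 also called 1 of the 10 members to which it gave an adjusted p. The median log2 difference, male minus female, was -0.30 over the members and 0 over all genes. Female and male colon libraries did not overlap in 6 of 93 members (6.45%), beside 13.4% of all genes tested, so this share was no higher than the background. These 6 were Gm12250, Gm6450 and Gm4880, higher in female, and Gm8221, Gm8974 and Gm16215, higher in male colon, where Gm6450, Gm8974 and Gm16215 were named after their values were seen.

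The member called was Gm12250 (ENSMUSG00000082292, chr11:58187739-58189012), which the deposited annotation types as a processed pseudogene. The RefSeq table lists it as protein-coding with the synonym Irgb10, a member of the immunity-related GTPases that interferons induce and that act on the vacuoles of intracellular microbes. It was at 27.0, 119 and 29.5 CPM in female colon 1, 2 and 3 and at 5.24, 8.03 and 8.77 CPM in male colon 1, 2 and 3. All 3 female libraries were above all 3 male ones, and female colon 2 was far above the other 5. Means were 58.4 ± 52.2 CPM in female and 7.35 ± 1.86 CPM in male colon (SD, n = 3 each). The log2 difference, male minus female, was -3.17 (SE 0.51, edgeR quasi-likelihood test, Benjamini-Hochberg adjusted p = 0.00179). Without female colon 2 it was -2.05 with an adjusted p of 0.0430 by the same edgeR test, and in a fit over the 6 colon libraries alone the adjusted p was 0.0600, which no longer passed 0.05.

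Whether this sex difference was larger in colon than in other tissues was tested as an interaction against brain, cerebellum and heart. Across all genes 0.0602% were called in either direction by edgeR's quasi-likelihood test. For the members edgeR called 0 of 93 in this comparison, with 4 at an unadjusted p under 0.05, and DESeq2 called 1. Gm12250 had a log2 interaction of -2.77 (SE 0.61, edgeR adjusted p = 0.103). Without female colon 1 or without female colon 3 edgeR called 1 member. Many members had groups at 0 counts outside colon, for which this test carries no information. The rule kept members low in brain, cerebellum and heart, and they passed the filter through colon. The number of members called in the interaction is therefore a description.

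The neighbours of Gm12250 shared its highest library. Gm12251, an intronless copy of the mitochondrial complex I gene Ndufs3, was at 4.43, 13.1 and 2.65 CPM in female and at 2.38, 3.56 and 2.55 CPM in male colon 1, 2 and 3. Gm12252, named after its values were seen, was at 0.511, 2.05 and 0.0679 CPM in female and at 0.159, 0.266 and 0.150 CPM in male colon 1, 2 and 3. In all 3 members of this chromosome 11 group female colon 2 held the highest value. Gm12251 lies 390 bases from Lypd8, a colonocyte gene.

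A few interferon-inducible genes were chosen by hand after the values of Gm12250 were seen, so they are given as values with no test. Irgm1, another immunity-related GTPase, was at 122, 316 and 125 CPM in female and at 53.1, 78.1 and 68.3 CPM in male colon 1, 2 and 3. Isg15, a ubiquitin-like protein gene, was at 31.0, 266 and 89.3 CPM in female and at 6.67, 18.6 and 14.9 CPM in male colon 1, 2 and 3. Both were highest in female colon 2, as were Irgm2 at 203 CPM, Igtp at 135 CPM and Irf7 at 880 CPM. Copies of Gvin1, also induced by interferons, were not, apart from Gm27149. The part of an interferon response in the level of Gm12250 was not tested.

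**Figure D3:**
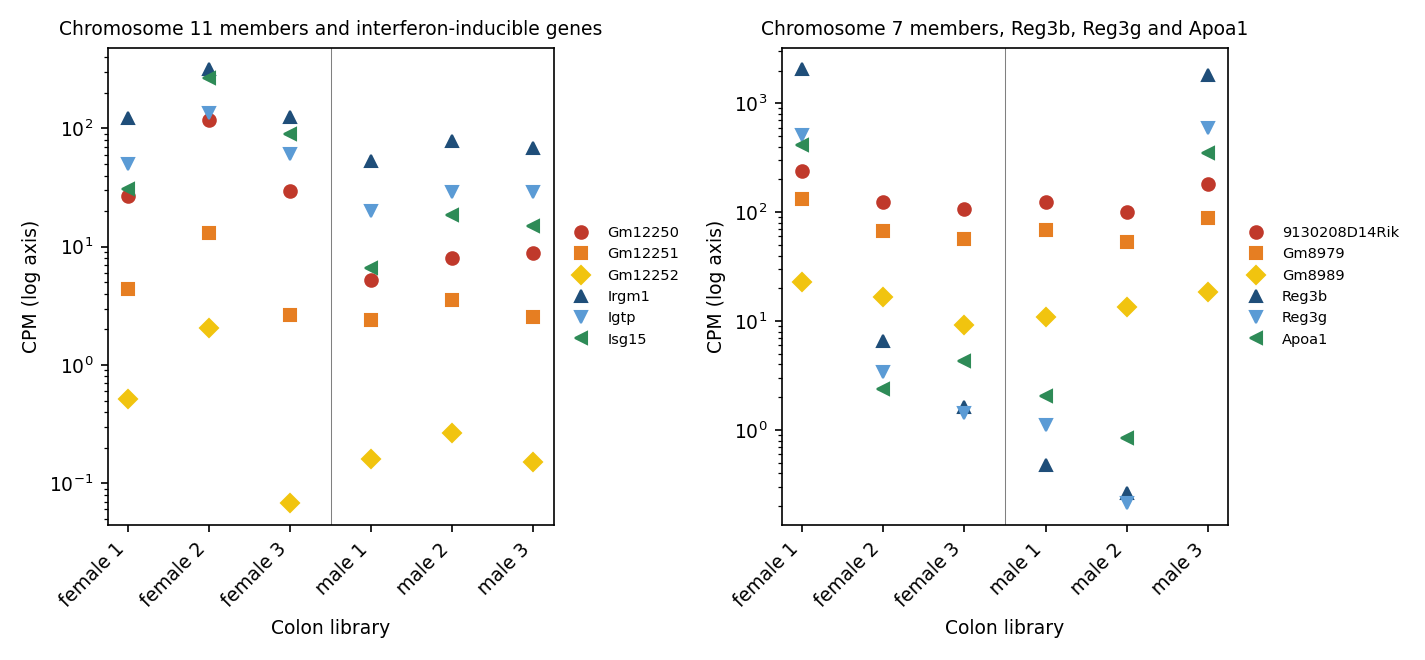
CPM on a log axis in each of the 6 colon libraries for the 3 chromosome 11 members with Irgm1, Igtp and Isg15 (left) and for 3 chromosome 7 members with Reg3b, Reg3g and Apoa1 (right). On the left each gene is highest in female colon 2, and on the right each gene is highest or second highest in female colon 1 and male colon 3.

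The sequence before the RefSeq start of Gm12250 is shown for the only member called by sex, and the letters searched were chosen after its values were seen. Of the 93 members, 3 had a promoter in the RefSeq table for GRCm38.p6 (Gm12250, Gm15331 and Rpl32l, the last named after its values were seen). Both strands of the 250 bases before each RefSeq start were searched for GAAA followed after 2 bases of any kind by GAAA, the core of the interferon-stimulated response element. It was held by 2.98% of 32851 promoters. In Gm12250 it occurred at 2 places, 91 and 46 bases before the start, and in Gm15331 and Rpl32l it did not occur. Capitals mark these letters, on the plus strand of chr11:58183593-58183842, and each match is a description of letters only, with no test of what controls the gene. This stretch ends ahead of the start in the deposited annotation, at 58187739, so it does not adjoin the bases that were counted.
Gm12250 promoter: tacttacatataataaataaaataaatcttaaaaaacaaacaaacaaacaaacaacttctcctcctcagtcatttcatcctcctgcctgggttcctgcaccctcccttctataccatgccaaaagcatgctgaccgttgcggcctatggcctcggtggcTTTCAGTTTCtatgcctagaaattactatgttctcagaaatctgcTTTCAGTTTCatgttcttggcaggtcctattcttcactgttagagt

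Levels outside colon were compared between the other tissues, which the rule bounded but did not set against each other. Ovary, heart and testis were each compared with brain and cerebellum, so the 3 comparisons share those samples. In ovary 22 members (23.7%) were higher and 4 (4.30%) lower, beside 27.0% of all genes higher and 30.9% lower, by the quasi-likelihood test of edgeR after Benjamini-Hochberg adjustment. Without ovary 1 or without ovary 3, 14 members were higher, and 1 was lower without ovary 2 and 2 were lower without ovary 3. In heart 18 members (19.4%) were higher and 1 (1.08%) was lower, beside 24.9% and 35.2% of all genes, with 2 lower without female heart 2 and 3 without female heart 3. In testis 29 members (31.2%) were higher and 2 (2.15%) lower, beside 41.4% and 31.5% of all genes, with 4 lower without male brain 1 or without male cerebellum 1. The rule and the filter fix these shares in part, since members had to be low outside colon and passed the filter through colon, so they are given as a description.

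In this paragraph levels of single members in these tissues are given as values without a test, since the rule used them. Fitted differences of a few members stand in the closing section as a description. Gm12551 ran from 0.975 to 1.26 CPM in the 3 testis libraries and was at 0.122 CPM or less in all 12 of brain and cerebellum. Naip3 and Gm15368 also had their highest mean outside colon in testis, at 0.469 and 0.256 CPM. Gm12250 ran from 2.51 to 5.62 CPM in the 5 heart libraries and from 0.276 to 1.09 CPM in brain and cerebellum. AC131980.1 was highest outside colon in male cerebellum 3, at 0.489 CPM, and was at 0.0399 CPM or less in heart.

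Parents were sought for the 92 members with a spliced sequence in the GRCm38 reference, by aligning each to the transcripts of protein-coding genes. A gene counted as the parent when its best alignment covered at least 50% of the member at 80% identity or more. This gave 70 members a parent, 61 distinct genes in all, with identity from 81.6% to 99.7% and a median of 92.6%. Of the 70, 14 lay within 500 kb of the parent on the same chromosome, and 14 were copies of 10 ribosomal protein genes. Rpl17 was the parent of Gm16259, Gm11380 and Gm3617, and Gvin1 of 3 members named above. The highest identities were those of Gm9242 with Hnrnpa3 (99.7%), Gm16464 with Ccnyl1 (99.3%), Gm12251 with Ndufs3 (98.6%), Gm7399 with Hnrnpa3 (98.5%) and Gm11821 with Gxylt1 (98.3%). The lowest were Gm15595 with Oas1d (81.6%), Gm18087 with Rps3 (81.6%), Gm15372 and Gm15374 with Ugt1a7c (82.5% and 82.9%) and Gm4714 with S100a10 (82.7%).

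Parents were not as a rule higher in colon. The 59 distinct parent genes were compared by the quasi-likelihood test of edgeR with Benjamini-Hochberg adjustment. Of these, 18 (30.5%) were higher in colon than in the other tissues and 22 (37.3%) lower. Of protein-coding genes, 28.3% were higher and 41.9% lower, and of all genes tested 28.2% and 31.1%. The median log2 difference was -0.02 over the parents and -0.41 over protein-coding genes. The largest differences were those of parents of unprocessed members: Car1 at 13.73, Clec2e at 11.21, Naip1 at 10.40, BC025446 at 9.96, Apol7c at 7.59 and the Ugt1a locus at 5.58, where Car1 is a colonocyte marker and Clec2e and BC025446 were named after their values were seen. Parents of processed members lay on both sides of the mean of the other 5 tissues on the log2 scale. Oas1d at 3.54 and S100a10 at 3.09 were above it, and Hspd1 at -0.67 and Ndufs3 at -0.81 below it. A single tissue can exceed colon in such a comparison, since Oas1d had 0.223 FPKM in colon and 2.78 FPKM in ovary. Ndufs3 had 44.5 FPKM in colon and 196 FPKM in heart, while its copy Gm12251 had 6.02 FPKM in colon and a mean of 0.212 CPM in heart.

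Per length, members were below their parents with few exceptions. Of 66 members whose parent had a level in colon, 4 were above it in FPKM and 46 were below 10% of it, with a median of 4.27%. The 4 were 9130208D14Rik, Gm8714, Gm15595 and Gm7741, of which Gm8714 and Gm7741 were named after their values were seen. Gm8714 had 118, 4 and 9 counts in female and 4, 0 and 20 counts in male colon 1, 2 and 3, so most of its counts came from female colon 1.

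The position of the members within other genes was recorded by strand. Protein-coding genes contained 34 members (36.6%) on the same strand and 16 (17.2%) on the opposite strand, beside 5.67% and 9.62% of the 11337 pseudogenes of the pool, and 43 lay in none. Members had to reach the CPM floor in colon and the pool did not, so these shares are a description. The shares among expressed pseudogenes were not computed, so a trait of colon-enriched ones cannot be read from them. Of the members, 37 lay in no gene of any type and shared no exon base with one. Of the 34, 25 were processed. No member shared an exon base with another gene on the same strand, and 3 did on the opposite strand. Which strand setting was used in counting is not given in the sources used here, so reads of a member and of a gene on the other strand cannot be told apart either.

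Host genes, unlike parents, were mostly higher in colon. Of protein-coding genes, 28.3% were higher in colon and 41.9% lower, and of all genes tested 28.2% and 31.1%. Of 27 distinct same-strand hosts, 26 (96.3%) were higher in colon and 0 lower by edgeR's quasi-likelihood test. Their median log2 difference was 3.49, and DESeq2 also called 0 lower. The exception was Zfp810, which holds Gm18225, a member named after its values were seen, at 0.23. Of 15 opposite-strand hosts 12 were higher and 2 lower, with a median of 2.09. The 2 lower were Ankrd29 at -1.86 and Myo9a at -1.01, which hold Gm16072, Gm2735 and Gm48805, all named after their values were seen. The comparison was with the mean of the other tissues on the log2 scale, so a single tissue could exceed colon. Among same-strand hosts called higher, this was so for Slc22a21, Stard10, Npas2 and Map7. Stard10 and Map7 were named after their values were seen. Slc22a21 had 3.79 FPKM in colon and 19.7 FPKM in testis. Of the opposite-strand hosts called higher, B3gnt3, Smad4 and Vwa8 had another tissue above colon, and they were named after their values were seen. B3gnt3 had 28.9 FPKM in colon and 235 FPKM in testis.

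Several hosts are known epithelial genes. Hnf4g, which encodes a nuclear receptor and holds Gm37000, was higher in colon by 12.53 (SE 0.51, edgeR adjusted p = 8.74e-13). Heph, an iron oxidase gene that holds Gm14935, was also higher, as was Cftr, the chloride channel gene that holds Gm15595, by 4.33. Fam3b, which holds Gm9242 on the opposite strand, was higher by 10.47. Same-strand members had a median of 4.74% of the FPKM of their hosts, and none of the 34 was above its host. For Gm37000 this was 13.1%, at 2.04, 0.761 and 0.543 CPM in female and 0.688, 2.07 and 2.17 CPM in male colon 1, 2 and 3, with 0 counts elsewhere. The part of unspliced host RNA in the counts of these members was not tested.

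**Figure D4:**
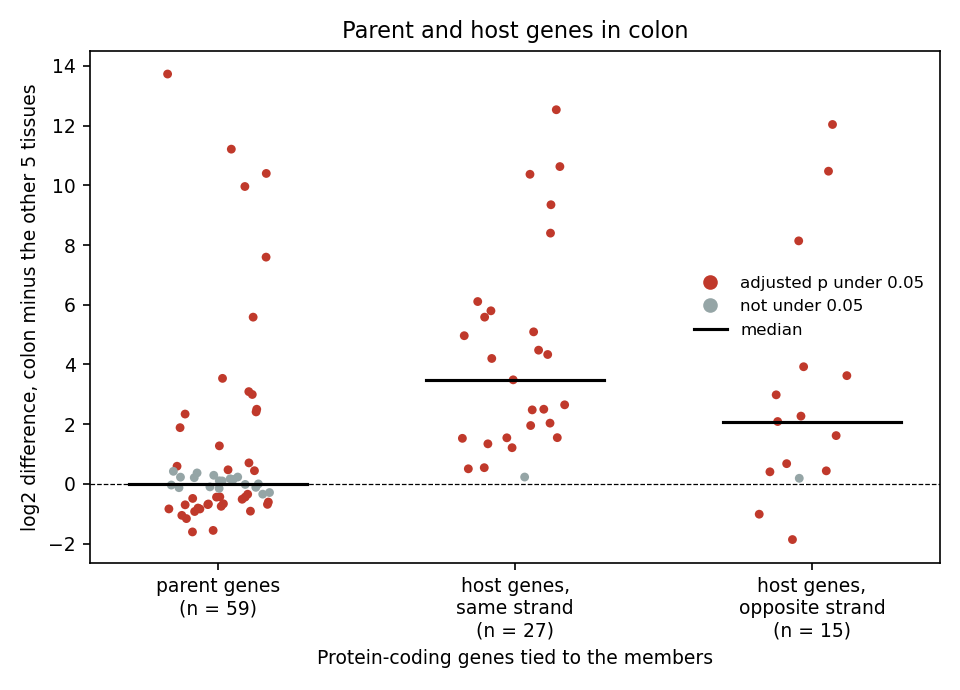
The log2 difference between colon and the mean of the other 5 tissues for 59 parent genes, 27 same-strand and 15 opposite-strand host genes of the members, 1 point per gene, red where the adjusted p is under 0.05, with the median as a line. Medians are -0.02, 3.49 and 2.09.

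The sequences of the members were read against the reading frames of their parents. Of the 70 members with a parent, 61 aligned over at least 50% of the parent's coding sequence. In-frame stop codons were found in 23 of these, gaps that shift the frame in 46 and either kind in 50, and 11 had neither. Over all 70 members with a parent, the longest frame from a start codon reached at least 90% of the parent's codons in 8 and less than 50% in 41. Among the 8, 9130208D14Rik held a frame of 2430 codons beside 2427 in Gm4070, even though the alignment has 7 gaps that shift the frame in places. Gm12251 held 263 codons, as many as Ndufs3, Gm9242 held 357, as many as Hnrnpa3, and Gm16464 held 291, as many as Ccnyl1. Gm8221, whose alignment to Apol7c had no stop or frame-shifting gap, kept a frame of 215 codons from a start codon beside 369. Gm12250, for which no parent passed the limits, held a frame of 417 codons in 1274 bases. Whether any of these frames is translated was not measured.

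Stretches of 75 bases around a stop codon are shown for 4 members, to show at base level a stop in place of a parent codon. Such a stop need not be the first break of the frame. The alignments of Gm15374, Gm14935 and Gm7450 also held 1, 8 and 2 gaps that shift the frame. Capitals mark the codon in the member that is a stop and the codon in its place in the parent, and the coordinates are those of mm10. Gm15374 has a stop at codon 176 of 531 of Ugt1a7c (chr1:88151515-88151589, plus strand). Gm14935 has one at codon 129 of 573 of Hspd1 (chrX:96548989-96549063, plus strand). The last pair was chosen after values were seen: Gm7450 at codon 356 of 461 of Odc1 (chr17:15576127-15576201, minus strand), and Gm5552 at codon 154 of 171 of Sat1 (chr5:29794537-29794611, minus strand).
Gm15374: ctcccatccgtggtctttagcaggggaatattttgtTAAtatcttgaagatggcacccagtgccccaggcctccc
Ugt1a7c: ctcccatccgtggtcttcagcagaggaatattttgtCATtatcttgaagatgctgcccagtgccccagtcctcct
Gm14935: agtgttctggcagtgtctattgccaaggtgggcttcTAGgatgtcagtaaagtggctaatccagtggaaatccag
Hspd1: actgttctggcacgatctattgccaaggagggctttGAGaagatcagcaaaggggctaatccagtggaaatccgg
Gm7450: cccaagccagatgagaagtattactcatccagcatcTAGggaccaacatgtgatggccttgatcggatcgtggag
Odc1: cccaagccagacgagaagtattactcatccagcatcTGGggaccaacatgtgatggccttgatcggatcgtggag
Gm5552: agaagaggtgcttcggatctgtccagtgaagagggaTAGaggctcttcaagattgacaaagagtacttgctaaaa
Sat1: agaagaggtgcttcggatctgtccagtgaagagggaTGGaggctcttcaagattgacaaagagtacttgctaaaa

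The members of these stretches were far below their parents. Gm5552 was at 1.11 FPKM beside 179 FPKM for Sat1 in colon. Gm14935 was at 6.64, 4.16 and 1.36 CPM in female and at 1.64, 2.02 and 3.75 CPM in male colon 1, 2 and 3, and at 1.89, 0.241 and 0.641 CPM in ovary 1, 2 and 3. Ovary was its next tissue after colon, with a ratio of 3.54.

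The cell types that make up the colon samples were followed by lists of marker genes. No marker of 14 lists of cell types was called between male and female colon by edgeR, while DESeq2 called 7 and 17 had an unadjusted p under 0.05 by edgeR. Goblet cell markers, all 8 above 0, summed to 8089, 2805 and 2796 CPM in female and 3302, 4039 and 5311 CPM in male colon 1, 2 and 3, led by Muc2 at a mean of 1408 CPM. Agr2, Spdef, Muc2 and Clca1 were highest in female colon 1 and second highest in male colon 3, as were 9130208D14Rik, Gm8979 and Gm8989. Zg16 was highest in male colon 3, followed by female colon 1. Spink4 was highest in female colon 2 and Fcgbp in male colon 2. Tff3 was highest in male colon 3 but lowest in female colon 1. Smooth muscle markers, all 9 above 0, summed to 10852, 14082 and 18989 CPM in female and 29653, 20639 and 14073 CPM in male colon 1, 2 and 3, led by Acta2 at 4127 CPM. Here female colon 1 was the lowest. The absorptive colonocyte markers, all 16 above 0, summed to 35403, 50908 and 44221 CPM in female and 26472, 35889 and 35256 CPM in male colon 1, 2 and 3, led by Car1 at 14625 CPM. Female colon 2, where Gm12250 was highest, was also the highest here, and the part of cell composition in the levels of the members was not tested.

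Other lists were smaller in sum. The means over the colon libraries were 1556 CPM for plasma and B cells, 683 for macrophages, 18.5 for T cells, 81.7 for mast cells, 1864 for fibroblasts, 322 for adipocytes, 77.4 for enteroendocrine cells, 282 for stem and dividing crypt cells and 54.5 for enteric neurons and glia. In male colon 1 the B cell gene Ms4a1 was at 40.8 CPM against 1.70 CPM or less in all other colon libraries but male colon 2. Pancreatic acinar markers averaged 18.6 CPM, nearly all of it Cela1, with Pnlip, Cela2a and Amy2a5 at 0. Hepatocyte markers averaged 141 CPM, most of it Apoa1 in female colon 1 and male colon 3, while Alb was at 0.407 CPM or less in colon. Of the 109 housekeeping genes, mostly of ribosomal proteins and the parents of many processed pseudogenes, 20 were higher and 27 lower in colon. Of all protein-coding genes, 28.3% were higher and 41.9% lower. The median log2 difference was -0.09 for the list and -0.41 over protein-coding genes. The summed CPM of the list averaged 50325 in colon and 42266 over the other libraries, and the list as a whole was not tested.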

How the data were processed

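The deposited table of gene counts was used for all 29 RNA-seq libraries, and the 6 long-read samples entered only through the deposited annotation, to which the rows belong. The authors made the counts with HISAT2 2.0.5 and featureCounts 1.6.3 on mm10 after FastQC 0.11.8 and MultiQC 0.9, according to the submitters' processing notes. Which strand was counted is stated in none of the sources used. CPM was computed from column totals, and FPKM as CPM per kilobase of merged exons. Members and lists were chosen with earlier results of these data known.

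Genes passing filterByExpr were fitted together with a mean for each of 10 groups, TMM normalization and the quasi-likelihood test of edgeR 4.0.16 in R 4.3.3, with p-values adjusted over all of them by Benjamini-Hochberg and a limit of 0.05. The procedure was tested on simulated data. Comparisons were male against female colon, that difference against those in brain, cerebellum and heart, each of ovary, heart and testis against brain and cerebellum, and colon against the mean of the other 5 tissues for parent and host genes. Colon against other tissues chose the members and was not tested for them.

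Parents were found with BLAST+ 2.17.0 (blastn, E-value of 1e-10) against coding transcripts of GENCODE M21, and overlaps with bedtools 2.31.1. Tables were made with python 3.11.15, pandas 2.3.3, numpy 2.4.6 and matplotlib 3.10.9. Alternatives were DESeq2 1.42.0, its size factors in edgeR, no filter, a replicate block, each library left out in turn, a fit over the colon libraries alone, other limits, units and biotypes in the rule, and stricter limits for parents. Leaving out female colon 1 and male colon 3 together was chosen after seeing the data. Of 126 same-numbered pairs of libraries from different groups, 5 had residuals correlated above 0.1, with a median of -0.00197, so replicate numbers were not used as pairs. Among 28 pairs of replicates none was identical.

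Members were named when among the 15 with the highest colon mean, the 5 with the largest ratio, the 3 nearest each side of a threshold, those called for sex or interaction, the 5 with the highest or lowest identity to a parent, or those sharing a parent or host with at least 2 others. Their parents and hosts and the markers were named too, and any other gene was chosen after its values were seen. Marker lists covered 14 cell types, the sex of the library and housekeeping genes.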

Additional observations from a re-analysis of the deposited data

Results flagged for a closer look

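For 104 values, each over 1 tissue's libraries, the gap between the extreme value and its neighbour was set against the set's range. Chance alone meets this rule in about 1 of 20 sets of independent, normally distributed values. The levels here share libraries and many rest on few counts, so that share does not hold for them. The 104 were the colon levels of all 93 members and of 7 genes added after values were seen, and the summed CPM of the members in 4 tissues. A library far from the others was found in 22. Female colon 1 was the library apart for Gm14921 (ratio of gap to range 0.890), Gm8714 (0.851), Gm50126 (0.721), Gm18001 (0.717), Gm12529 (0.684), Gm7399 (0.673), Gm15730 (0.670), Gm8162 (0.652), Gm11380 (0.648), Gm14874 (0.638) and Gm15383 (0.628). Female colon 2 was apart for Gm12251 (0.808, at 13.1 CPM), Gm12250 (0.786, at 119 CPM), Gm12252 (0.776, at 2.05 CPM) and Gm16464 (0.723, at 4.16 CPM), and among the added genes for Irgm1 (0.726), Isg15 (0.682), Igtp (0.646) and Irgm2 (0.635). Male colon 3 was apart for Gm16215 (0.704) and male colon 1 for Gm5962 (0.626). The summed CPM of the members set female heart 3 apart from the other 4 heart libraries (0.864, at 21.9 CPM). Members outside the naming rule were named here after their values were seen. What sets these libraries apart was not tested.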

How the results depend on the processing

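The 93 members became 51 with a floor of 1 CPM, 144 with a ratio of 2 and 37 when only members outside other genes were kept. With TMM effective library sizes in the rule there were 91, of which 82 were shared. Leaving out 1 library gave 82 (without female colon 1) to 111 (without female ovary 1), with 68 members kept throughout, and without female colon 1 and male colon 3 there were 85, of which 72 were shared. Without that pair, members called for sex stayed at 0 and 1, with Gm12250 at -3.69, the interaction stayed at 0, 21 parents were higher and 21 lower, and 25 same-strand and 12 opposite-strand hosts were higher. The 1 member lower in male colon became 0 in a fit over the 6 colon libraries. For the interaction the 0 members lower became 1 with DESeq2, and leave-outs gave 0 to 1, with 1 without female colon 1 or without female colon 3.

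Members higher in ovary ran from 14 (without ovary 1 or ovary 3) to 25, and those lower from 1 (without ovary 2) to 5, with 2 without ovary 3. Members lower in heart ran from 1 to 3, with 2 without female heart 2 and 3 without female heart 3. Members lower in testis ran from 2 to 4, with 4 without male brain 1 or without male cerebellum 1. The log2 difference in ovary turned for Gm15595 (from -0.43 without ovary 1 to 5.20) and vanished for Gm15376 (from 0 without ovary 3 to 3.93) and Gm4880 (from 0 without ovary 2 to 4.02). In heart, without male heart 1, Gm15374 moved from 2.41 to 0.46 and Gm15369 from 3.56 to 0.99. The cause of these moves was not tested. All of these fitted differences lie in tissues that the rule bounded, so they are a description. Gm15595 was at 0.776, 0 and 0 CPM in ovary 1, 2 and 3.

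With the replicate block, 19 members were higher and 3 lower in ovary, 17 and 1 in heart, 27 and 2 in testis, and Gm12250 had a log2 sex difference of -3.03 in colon. The rule and the filter fix the ovary, heart and testis counts in part, so those counts are a description. Parent and host counts stayed within 1.5 times under all alternatives. Few counts per member limit all of these, since 3 counts in the shallowest colon library correspond to 0.255 CPM.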
